A study of Mus musculus with 5 samples.

Results

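The 10 imprinted genes Ndn, Cdkn1c, Igf2r, Grb10, Peg3, Plagl1, H19, Meg3, Dlk1 and Gnas were followed through 5 RNA-seq libraries of mouse bone marrow cells. They were taken by gene symbol from a list of imprinted genes tied to blood stem cells, and 10 of 10 were found in both kinds of file, among 38166 features in the KSL files and 34315 in the granulocyte files. Meg3 appears only in a feature merged with the microRNA genes Mir1906-2 and Mir770. KSL cells are c-Kit+, Sca-1+ and lineage-negative bone marrow cells, the fraction that holds blood stem cells and early progenitors. All animals were C57BL/6. For the 3 KSL libraries, Sca-1+ cells from mice injected with 5-fluorouracil (5-FU), a drug that kills dividing cells, received a knockdown retrovirus carrying green fluorescent protein (GFP). After 2 days in culture with stem cell factor (10 ng/ml) and thrombopoietin (100 ng/ml), KSL cells positive for GFP were sorted. One virus was the knockdown control, another was directed against the long non-coding RNA LncHSC-1 and the other against LncHSC-2, with 1 library each. The labels do not state the age of these mice or how many were pooled. The granulocytes were Gr1+ cells sorted directly from bone marrow at 12 months, sequenced as 2 technical replicates of 1 biological replicate, so n = 1. All RNA was selected for polyA tails.

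An imprinted gene is transcribed mainly from the copy inherited from the mother or mainly from that inherited from the father, because a DNA methylation mark laid down in the germ line is kept on 1 parental copy. Such genes sit in clusters that share a control region, and many of them set the pace of growth: some encode growth signals, others encode brakes. In blood stem cells the group is known for its brakes, above all the cell cycle inhibitor encoded by Cdkn1c and the growth suppressor encoded by Ndn, which are linked to the resting state of the most primitive cells. The libraries report the sum of both parental copies, so imprinting itself was not measured.

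The promoters of the members differ in CpG content, the dinucleotide that carries the methylation mark, and 6 of them are printed here 5 from the members with the most reads in KSL cells and that of Peg3 for the motif described after them. They are RefSeq sequences on GRCm38, 5′ to 3′, of the 250 bases before a transcription start, with each CG in capitals; the table matched 8 of the 10 members with 13 promoters.
Grb10, distal promoter, chr11:12037421-12037670, minus strand: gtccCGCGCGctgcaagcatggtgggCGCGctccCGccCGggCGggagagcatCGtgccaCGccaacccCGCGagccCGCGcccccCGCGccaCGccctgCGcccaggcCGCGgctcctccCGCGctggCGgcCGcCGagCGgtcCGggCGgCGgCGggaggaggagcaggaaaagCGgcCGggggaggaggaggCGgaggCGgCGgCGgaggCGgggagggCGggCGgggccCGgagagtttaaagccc
Grb10, internal promoter, chr11:12027972-12028221, minus strand: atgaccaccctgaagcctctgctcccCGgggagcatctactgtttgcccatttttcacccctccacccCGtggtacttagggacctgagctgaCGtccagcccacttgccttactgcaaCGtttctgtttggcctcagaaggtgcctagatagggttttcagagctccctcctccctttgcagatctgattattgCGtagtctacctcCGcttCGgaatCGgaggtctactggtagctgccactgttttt
Gnas, the most downstream of 4 promoters, chr2:174329756-174330005, plus strand: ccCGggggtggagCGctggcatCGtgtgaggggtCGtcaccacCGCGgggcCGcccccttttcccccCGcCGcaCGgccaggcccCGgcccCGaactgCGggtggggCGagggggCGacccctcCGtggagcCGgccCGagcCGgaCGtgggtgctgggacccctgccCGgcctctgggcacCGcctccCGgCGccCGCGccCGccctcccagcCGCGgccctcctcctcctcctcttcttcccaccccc
Igf2r, chr17:12769707-12769956, minus strand: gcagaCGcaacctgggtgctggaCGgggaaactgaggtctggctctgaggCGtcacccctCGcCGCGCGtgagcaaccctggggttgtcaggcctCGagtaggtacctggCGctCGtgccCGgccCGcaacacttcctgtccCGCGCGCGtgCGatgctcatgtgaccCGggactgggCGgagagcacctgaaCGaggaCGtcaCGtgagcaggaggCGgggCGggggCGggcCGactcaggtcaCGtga
Ndn, chr7:62348027-62348276, plus strand: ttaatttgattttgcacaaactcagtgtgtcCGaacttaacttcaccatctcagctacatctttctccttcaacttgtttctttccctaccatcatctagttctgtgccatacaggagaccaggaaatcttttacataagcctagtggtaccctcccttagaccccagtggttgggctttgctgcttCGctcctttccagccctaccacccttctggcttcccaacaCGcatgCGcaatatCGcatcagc
Peg3, chr7:6730420-6730669, minus strand: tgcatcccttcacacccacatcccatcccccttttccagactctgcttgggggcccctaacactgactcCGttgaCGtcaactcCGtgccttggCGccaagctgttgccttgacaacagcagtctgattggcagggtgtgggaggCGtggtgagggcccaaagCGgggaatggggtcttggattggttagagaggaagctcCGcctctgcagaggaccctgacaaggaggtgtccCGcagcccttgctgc
The distal Grb10 promoter holds 40 CG dinucleotides, as many as or more than 98.9% of 32851 promoters in the table, whereas its internal promoter holds 8. The Gnas promoter shown holds 29, that of Igf2r 27, that of Ndn 5 and that of Peg3 8, against a median of 6.00 over all promoters. Of the 13 member promoters 11 lie above that median. The palindrome GGGGCCCC, which reads the same on both strands and is known as a binding sequence of the zinc finger protein encoded by Plagl1, occurs in 1 of the 13, that of Peg3, and in 0.889% of all promoters of this length. Neither count says which promoter was in use, and DNA methylation was not measured here.

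The KSL libraries held an estimated 19934925 to 24145600 reads and the granulocyte libraries 37877189 and 46699220. From here on, 3 values in a row for KSL cells are those of the control, LncHSC-1 and LncHSC-2 libraries, in that order. Of 14 stem and progenitor markers 12 or 13 were at 5 FPKM (fragments per kilobase of transcript, scaled to library size) or more in each KSL library, with Kit at 59.1 to 67.6 FPKM, and all 12 mature granulocyte markers were so in the granulocytes. Markers of other cell types were present in the KSL libraries: the summed level of 12 granulocyte markers was 119 to 131 FPKM and that of 12 stromal markers at most 15.3 FPKM. Most of the stromal sum was Runx2, and the stromal gene Lum was at 0 throughout. The 9 B lineage markers summed to 59.0, 107 and 61.8 FPKM, with 4, 6 and 4 of them at 5 FPKM or more, and the 9 measured monocyte, macrophage and dendritic markers to 97.4, 147 and 100.0 FPKM, with 3 of 9 at that level in each library. The 8 megakaryocyte markers summed to 521, 665 and 641 FPKM, the 8 erythroid markers to 87.3, 93.1 and 69.9 and the 7 endothelial markers to 76.7, 74.7 and 79.2 FPKM. Of the megakaryocyte markers 6 of 8 stood higher than control after each knockdown, and Gp6 was at 0 throughout. The granulocyte libraries also held markers of other cell types. There 8 of the 9 monocyte, macrophage and dendritic markers were at 5 FPKM or more, with sums of 366 and 367 FPKM. The erythroid markers summed to 161 and 158 FPKM, with 3 of 8 at that level. The B lineage markers summed to 3.70 and 3.49 FPKM and the megakaryocyte markers to 4.40 and 4.24 FPKM. The part of such cells in the granulocyte levels of the members was not tested. In such bulk samples fewer cells of a type and less RNA per cell cannot be told apart.

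In KSL cells the members spanned the whole range from very high expression to no read at all. Gnas, which encodes the stimulatory G protein alpha subunit that couples receptors to cyclic AMP, was at 367, 373 and 388 FPKM, rank 115 to 119 of all features. Grb10, an adaptor that binds the insulin and insulin-like growth factor (IGF) receptors and damps their signal, was at 15.0, 16.2 and 14.7 FPKM. Gnas (chromosome 2, 174109821 to 174172243 in mm9) and Grb10 (chromosome 11, 11830502 to 11937423) reached the floor used for comparisons. This floor was a mean of at least 5 FPKM over the KSL libraries, reached by 2 members of 10. Ndn (chromosome 7, 69493163 to 69494813), a member of the MAGE family, was at 4.24, 4.21 and 4.32 FPKM, just under the floor. Each of these 3 genes kept its place, and their ranges over the KSL libraries did not overlap.

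Below them came a pair of brakes on growth that were close together. Cdkn1c, which encodes the cyclin-dependent kinase inhibitor p57, was at 1.19, 1.17 and 1.34 FPKM. Igf2r, the mannose 6-phosphate receptor that takes up IGF2 for breakdown, was at 1.17, 1.55 and 1.20 FPKM. Their ranges overlapped, so their order was not resolved. Igf2r nevertheless rested on 253 to 401 reads, because its transcript is long, and Cdkn1c on 53.0 to 61.0. Dlk1, a membrane protein of the Notch ligand family known from fetal and progenitor tissues, was at 0.309, 0.397 and 0.270 FPKM on 32.0, 49.0 and 27.0 reads, below both. With these levels 5 of the 10 members reached 1 FPKM in the control KSL library and 2 reached 5 FPKM.

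**Figure D1:**
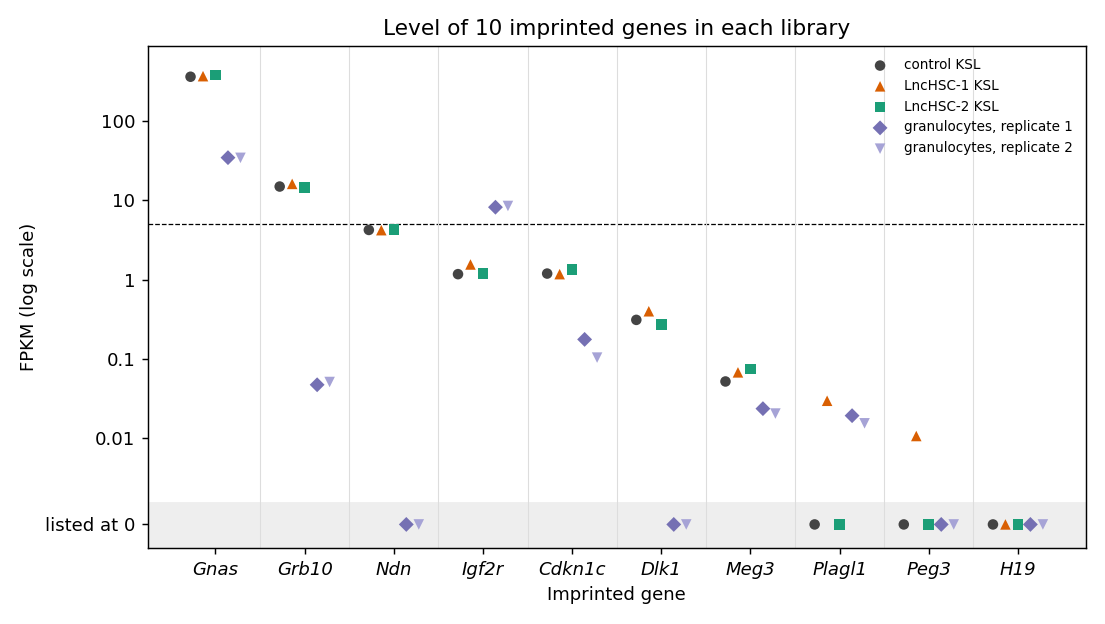
FPKM of the 10 imprinted genes (x axis, ordered by mean KSL level) on a log axis, with 1 point per library and a grey band for values listed at 0; the dashed line marks 5 FPKM. Gnas lies at 367 to 388 FPKM in KSL cells and near 35 in granulocytes, while Igf2r has granulocyte points, at 8.22 and 8.52, above its KSL points.

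The remaining members were at the edge of detection in KSL cells. The merged Meg3 feature, a maternally expressed long non-coding RNA gene, had 5.0, 6.0 and 5.0 reads. Its FPKM values of 0.0514, 0.0670 and 0.0744 therefore differ more than its reads do. Peg3, a zinc finger protein gene expressed from the paternal copy, had 0, 2.0 and 0 reads. H19, a maternally expressed long non-coding RNA that is abundant in fetal tissues, had no read in any of the 5 libraries. A count of 0 allows up to 0.143, 0.124 and 0.150 reads per 1000000, counting error only, so low expression of these genes was not detectable at this depth.

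Plagl1, which encodes a zinc finger factor that regulates other imprinted genes, was also listed at 0, 0.0293 and 0 FPKM. An unnamed model on the opposite strand, HAG_003563 (chromosome 10, 12846951 to 12851496 in mm9), lies inside Plagl1 and held 6.0, 2.6 and 2.0 reads. Both features together had 6.0, 7.0 and 2.0 reads. The counting is not stated to use strand, so the reads of such partners cannot be told apart, and for Plagl1 no fold between libraries is given. Ndn overlaps a model of this kind too, HAG_037550 (chromosome 7, 69493126 to 69495212), which had 0, 10.8 and 0 reads. The models were singled out after their values were seen.

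In granulocytes the order of the members changed. Gnas was again highest, at 34.8 and 34.6 FPKM in the 2 technical replicates, and ranked 1492. Igf2r came next at 8.22 and 8.52 FPKM on 3419 and 4373 reads, and these were the 2 members of 10 at 5 FPKM or more. Grb10, second in KSL cells, was at 0.0467 and 0.0506 FPKM on 11 and 15 reads. Cdkn1c was at 0.175 and 0.103, Meg3 at 0.0233 and 0.0202 and Plagl1 at 0.0190 and 0.0152 FPKM. Ndn, Dlk1, Peg3 and H19 had no read in either replicate, which allows up to 0.0792 and 0.0642 reads per 1000000. For the 6 detected members the counting interval of the ratio between the replicates included equality.

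The granulocyte and KSL tables were scaled separately, with other listed gene spans and another FPKM divisor. Levels across them therefore stand side by side with no fold. On a scale without gene length, as a share of each library's deposited counts, Gnas took 623 per 1000000 in the control KSL library and 260 and 258 in the granulocytes. Grb10 took 88.7 against 0.297 and 0.322, Ndn 7.61 against 0 and 0, and Igf2r 12.4 against 90.3 and 93.7. Of the 5 members at 1 FPKM or more in the control KSL library, Igf2r was the 1 that stood higher in the granulocytes on both scales. The KSL data list Igf2r over chromosome 17, 12875272 to 13061009 in mm9, a span that ends where the overlapping gene Mas1 ends. The granulocyte data end Igf2r at 12962572. The KSL span may therefore take in overlapping features, and it was not read as the extent of the gene. For Meg3 the scales went opposite ways, at 0.238 against 0.371 and 0.322 by counts and 0.0514 against 0.0233 and 0.0202 FPKM.

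The knockdown libraries ask which genes depend on each long non-coding RNA. In the LncHSC-1 library against control, 0 of the 2 members above the floor passed 1.5-fold on the log2(FPKM + 1) scale, where 2.23% of 9153 features did so. The levels of both target RNAs were not analysed here, so the labels stand unchecked. With 1 library per group there is no replicate check and no test of the conditions; the 95% exact binomial intervals given for the ratio of reads compare libraries and cover counting error only. Of the 5 members with a mean of at least 1 FPKM, 2 had an interval above equality and 0 below, while 35.0% of 12408 features had an interval on either side. Split by direction, 14.5% of features had an interval above equality and 20.6% below. A count of 2 in 5 is too small to be read as a result about the members.

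These 2 members were Igf2r and Grb10. Igf2r had 401 reads in the LncHSC-1 library against 260 in the control, a log2 ratio of reads of 0.40 (0.18 to 0.63) after allowing for depth. On the log2(FPKM + 1) scale, which understates low genes, the same difference was 0.23. Among 3255 features between 1 and 5 FPKM, 24% had a ratio of reads at least as far from control as that of Igf2r in either direction, and 14.8% at least as far above. Marker levels also differed from control in this library, and their part in the Igf2r value was not tested. Of the B lineage markers 8 of 9 were higher, and of the megakaryocyte markers 6 of 8, the latter also in the LncHSC-2 library. Other lists went both ways. Of the stem and progenitor markers 5 were higher and 9 lower, and of the erythroid markers 4 and 3. Of the endothelial markers 2 were higher and 4 lower, and of the stromal markers 5 and 6. Of the monocyte, macrophage and dendritic markers 9 of 9 were higher, mostly through the MHC class II genes H2-Aa (27.4 FPKM in the control and 51.3 here) and H2-Ab1 (41.9 and 59.3), which B cells also express, and Mpeg1 (17.7 and 24.3). The rest of that list rose by differing amounts. Cd14 was at 0.502 and 0.963, Fcgr1 at 1.53 and 2.06 and Ccr2 at 3.04 and 3.25 FPKM. Itgax was at 0.255 and 0.272, Csf1r at 2.24 and 2.31 and Emr1 at 2.79 and 2.82 FPKM. Of the 12 granulocyte markers 7 were higher and 5 lower, among the latter S100a9 (36.6 and 29.2), and their sum was 131 FPKM in the control and 124 here. The single markers were chosen after their values were seen. Grb10 had 2362 against 1864 reads, a log2 ratio of reads of 0.12 (0.03 to 0.21).

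The other members did not separate from control in the LncHSC-1 library. Gnas stood at a log2 ratio of reads of 0.03 (−0.01 to 0.06), Ndn at −0.01 (−0.32 to 0.30) and Cdkn1c at −0.02 (−0.57 to 0.54). For Ndn this interval does not reach 1.5-fold either way, and with the antisense model included the ratio was 0.07 (−0.24 to 0.38). Dlk1 was at 0.39, but its interval of −0.28 to 1.08 includes equality. For Meg3, at 0.04 (−1.93 to 2.09), the depth could not show even a large difference.

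**Figure D2:**
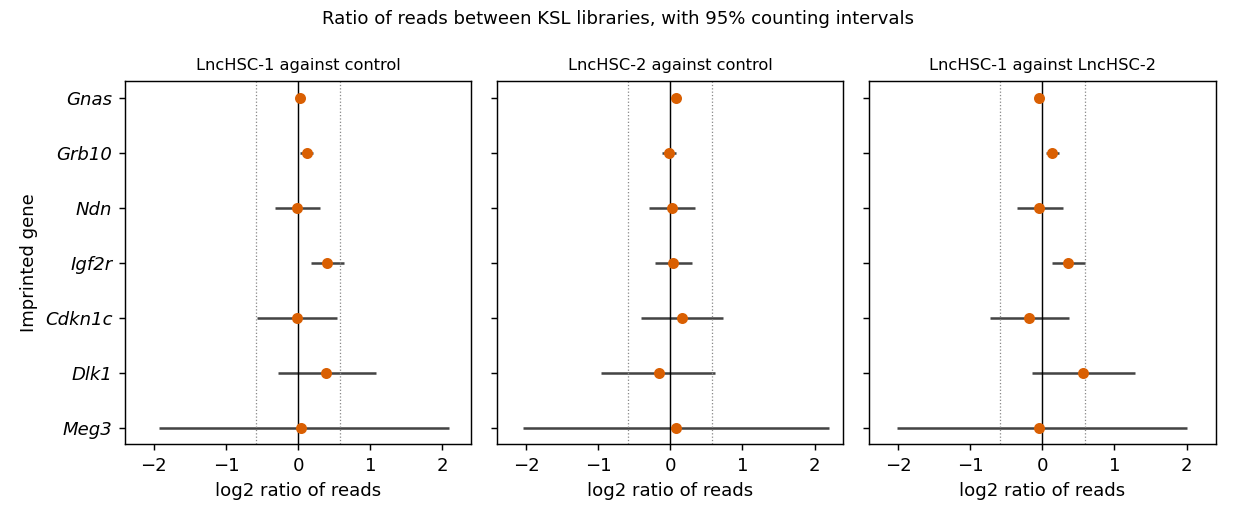
Log2 ratio of estimated reads (x axis) of the 7 members with reads in every KSL library, after allowing for depth, in 3 comparisons of single libraries. Bars are 95% exact binomial counting intervals and dotted lines mark 1.5-fold; Igf2r lies right of 0 at 0.40 and 0.36 in the comparisons with LncHSC-1 and at 0.04 in LncHSC-2 against control.

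In the LncHSC-2 library the counting intervals of Gnas, Grb10, Ndn and Igf2r against control did not reach 1.5-fold either way. For the other members a difference of that size could not be left out. Again 0 of 2 above the floor passed 1.5-fold, against 1.77% of all features. Gnas was the 1 member of 5 with a counting interval that left out equality, where 22.6% of features had such an interval. It stood at 0.08 (0.04 to 0.11) as a log2 ratio of reads, but at −0.07 with the deposited count columns, a scaling in which the median feature of that library lies 0.14 lower on the log2 scale. Grb10 stood at −0.02 (−0.11 to 0.08), Ndn at 0.03 (−0.30 to 0.35) and Igf2r at 0.04 (−0.21 to 0.30). Cdkn1c was at 0.16 (−0.41 to 0.73), Dlk1 at −0.16 (−0.96 to 0.62) and Meg3 at 0.08 (−2.04 to 2.20). Peg3, Plagl1 and H19 were listed at 0 reads in both libraries and gave no ratio.

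Both knockdown comparisons share 1 control library, so the LncHSC-1 library was also set directly against the LncHSC-2 library. Here 0 of 2 members passed 1.5-fold, against 2.31% of features, and 3 of 5 had an interval that left out equality, against 31.7%. Igf2r was higher in the LncHSC-1 library at 0.36 (0.13 to 0.59), and Grb10 at 0.14 (0.05 to 0.23). Gnas was at −0.05 (−0.08 to −0.02), which turned to 0.10 with the deposited count columns. Dlk1, at 49.0 against 27.0 reads, had the highest ratio of the detected members at 0.56, with an interval of −0.15 to 1.29. Cdkn1c (−0.18) and Ndn (−0.04) again had intervals that included equality.

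Genes listed as imprinted neighbours of the members were measured by region. The label comes from the list, and whether any of these genes is imprinted in these cells was not measured. Of 68 listed genes in the regions of the members and elsewhere, 65 features were found in each kind of file. Of these 21 were at 5 FPKM or more in the control KSL library and 12 in granulocytes, 32.3% and 18.5%, where 23.9% and 17.7% of all features were. None of the 21 features at the floor passed 1.5-fold in any of the 3 comparisons. Their median log2(FPKM + 1) ratio was −0.04 for LncHSC-1 against control, with 7 higher and 14 lower, and 0.02 for LncHSC-2 against control, with 12 higher and 9 lower; the medians of all features at that floor were −0.02 and 0.00.

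Around H19 and Cdkn1c on distal chromosome 7, the cluster held both strongly expressed genes and genes with no read. Cd81, a tetraspanin, was at 110 FPKM in control KSL cells, the histone chaperone gene Nap1l4 at 87.2, the tetraspanin Tspan32 at 69.4 and Tssc4 at 25.2. Igf2, the growth factor that Igf2r clears, had 1.0, 5.0 and 1.0 reads, and Ins2 had none. Igf2 and the next pair were singled out after their values were seen. Phlda2, a maternally expressed brake on placental growth, was at 5.83, 5.53 and 4.01 FPKM, and Slc22a18 at 1.44, 2.41 and 1.53 FPKM. In granulocytes Nap1l4 was at 25.9, Tspan32 at 18.5, Cd81 at 18.4 and Tssc4 at 4.08 FPKM (means of 2 technical replicates, n = 1).

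The other clusters differed in how much accompanied the member. Near Ndn, the ubiquitin ligase gene Ube3a was at 23.5 and the lipid transporter gene Atp10a at 18.0 FPKM in control KSL cells, whereas Peg12 was at 3.04, Mkrn3 at 0.926 and the small feature Snrpn,Snurf at 0.436. Magel2, a relative of Ndn in the MAGE family, had no read in any library. All 3 measured neighbours of Peg3 (Zim1, Zim3 and Usp29) were at 0 in all 5 libraries, as Peg3 was in 4 of them. Beside Dlk1 and Meg3, Begain was at 0.186 and Rian at 0.0577 FPKM, and Rtl1, Mirg and Dio3 at 0 in the control library. So the clusters of Peg3 and of Dlk1 and Meg3 held 0 of 3 and 0 of 5 neighbours at 5 FPKM.

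In the Igf2r cluster Slc22a3, an organic cation transporter gene, was at 38.2, 36.8 and 33.3 FPKM in the KSL libraries and 0.181 in granulocytes, the opposite order to Igf2r itself. Airn, the paternal RNA that runs antisense to Igf2r, had 0, 4.0 and 1.0 reads in KSL cells. Near Grb10, Ddc was at 0.0660 and Cobl at 0.0145 FPKM in control KSL cells. For Gnas the list covered distal chromosome 2, and whether its genes share a control region with Gnas was not checked. There the signal peptide peptidase gene H13 was at 47.9 and Blcap at 12.8 FPKM, with Mcts2 at 3.80 and Nnat at 0.326. Nespas, antisense to Gnas, had 8, 19 and 11 reads. A second antisense model inside Gnas, HAG_024509 (chromosome 2, 174146890 to 174153050 in mm9), singled out after its values were seen, was at 11.3, 10.1 and 9.58 FPKM in KSL cells and at 0.136 and 0.0909 FPKM in granulocytes. Of 24 genes listed as imprinted in other places 11 were at 5 FPKM or more in control KSL cells. They were led by Commd1 at 65.3, Pon2 at 32.6, Copg2 at 27.8 and Dhcr7 at 23.9 FPKM.

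**Figure D3:**
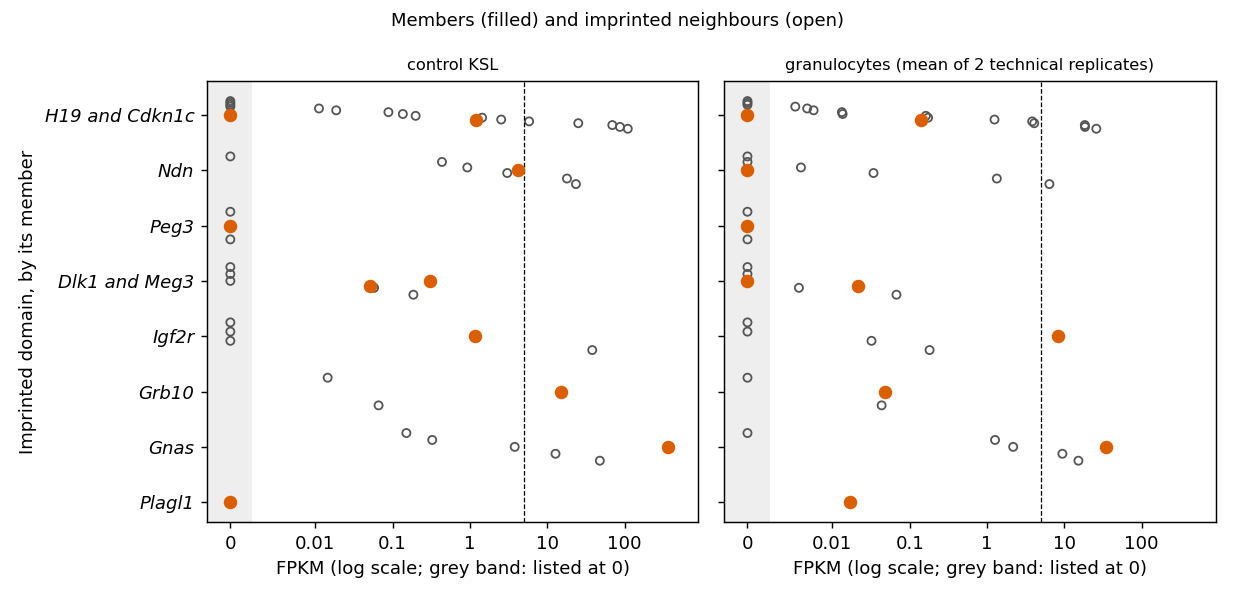
FPKM of the members (filled points) and of their listed imprinted neighbours (open points), by region, in control KSL cells and in granulocytes. The scales of these cell types differ. The axis is logarithmic, with a grey band for 0 and a dashed line at 5. The Gnas row holds genes listed for distal chromosome 2, not 1 cluster. The Peg3 row lies wholly in the band of 0, whereas the row of H19 and Cdkn1c runs from 0 to 110 FPKM in KSL cells.

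Most genes for the proteins that keep imprints were expressed in both cell types. Of 12 such genes 9 were at 5 FPKM or more in control KSL cells and 9 in granulocytes. Trim28, the corepressor that guards imprinted marks, was at 163 FPKM, the maintenance methyltransferase gene Dnmt1 at 106, its partner Uhrf1 at 70.9 and Mbd3 at 62.4 FPKM in the control KSL library. In granulocytes they were at 9.62, 10.5, 5.30 and 7.08 FPKM. Zfp57, the zinc finger gene that directs Trim28 to imprinted sites and was singled out after its values were seen, was at 2.78, 2.55 and 2.54 FPKM in KSL cells. None of the 9 passed 1.5-fold in any comparison, where 1.77% to 2.31% of all features at the floor did so. The medians of the 9 were −0.05 for LncHSC-1 and −0.03 for LncHSC-2 against control.

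Partners of the members in growth control were measured in 3 further lists. Their counts past 1.5-fold stand beside a share of 1.77% to 2.31% of all features at the floor. In the IGF axis 10 of 21 genes were at 5 FPKM or more in control KSL cells, led by Nedd4 at 169, Igfbp4 at 109, Akt1 at 107 and Akt2 at 28.1 FPKM, and 0 passed 1.5-fold in any comparison. The median log2(FPKM + 1) ratio of these 10 was 0.05 for LncHSC-1 against control, 8 higher and 2 lower, and 0.01 for LncHSC-2, 6 higher and 4 lower. Nedd4 encodes a ubiquitin ligase that binds Grb10 and Igfbp4 a protein that holds IGF in the medium. For the G1 phase of the cell cycle 14 of 16 genes were at that level, among them Hspa8 at 617, Cdk4 at 298, Ccnd3 at 117 and Ccnd2 at 84.2 FPKM. Hspa8 encodes a heat shock cognate chaperone and is no cyclin, kinase or inhibitor; without it 13 of 15 genes were at that level. The medians of the 14 were −0.04 in both comparisons with control, 6 higher and 8 lower. The 1 gene past 1.5-fold was the cyclin gene Ccne2, at 16.1 FPKM in the control and 8.56 in the LncHSC-2 library (−0.84). The inhibitors related to p57, named here after their values were seen, were far above Cdkn1c in control KSL cells: Cdkn1a was at 58.1 and Cdkn1b at 16.1 FPKM. In stimulatory G protein signalling, where Gnas acts, 12 of 18 genes were at 5 FPKM or more, led by Gnb2 at 164, Gng5 at 148, Prkar1a at 123 and Gnb1 at 88.3 FPKM, and 0 passed 1.5-fold; their medians were −0.03 for LncHSC-1 and 0.01 for LncHSC-2 against control.

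For the 2 members highest in KSL cells the genes with the most similar levels were sought among 20003 named genes, by the mean absolute difference of log2(FPKM + 1) over the 5 libraries. Nearest to Gnas were Rpl6 (0.10), Anp32b (0.123) and Cnbp (0.124). Rpl6 was at 332, 329 and 369 FPKM in KSL cells and at 33.6 and 33.2 in granulocytes. Nearest to Grb10 were Rbpms2 (0.042), Plxdc2 (0.051) and Rcor2 (0.052), all at 16.8 FPKM or less in KSL cells and 0.0501 or less in granulocytes. With 4 samples behind the 5 libraries, this is a likeness of level and no more.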

How the data were processed

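RNA was measured in 5 libraries, and the submitters' processing notes name DESeq and, as genome, mm9; the aligner, the counter and the annotation release are left unnamed there (not given in the sources used). FPKM values as deposited by the authors were the main measure. Per the file headers the KSL files also hold counts; these deposited columns were treated as a signal, because they are reads times 1 factor per library (1.0767, 0.9238 and 1.0298 for control, LncHSC-1 and LncHSC-2), and 91.7% to 92.1% of values up to 20 reads were whole within 0.1. The deposited granulocyte counts were treated as a score, reads times 1.0670 and 0.8650, rounded; their FPKM was divided by 50 M reads whatever the depth. The members and gene lists were chosen with earlier results of these data known.

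Features with a mean of 5 FPKM or more over the KSL libraries (9153) were compared by the log2 ratio of FPKM + 1, and 1.5-fold was the rule of size. Read ratios were divided by the median relative depth per FPKM (1.166, 0.945 and 1.234 for LncHSC-1 against control, LncHSC-2 against control and LncHSC-1 against LncHSC-2) and given 95% Clopper-Pearson intervals; a count of 0 was given a limit of 3 reads. No test of a condition was possible with 1 library per group. Named genes were the 10 members, the 4 highest of each list in control KSL cells and those past 1.5-fold; others are said to be singled out. The helpers were tested on simulated data. Python 3.11.15, numpy 2.4.6, pandas 2.3.3 and scipy 1.17.1 were used. Alternatives were the pseudocount, the floor, the fold, the count columns, the scaling and each technical replicate alone.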

Additional observations from a re-analysis of the deposited data

Results flagged for a closer look

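The unnamed model HAG_037550, which covers Ndn on the opposite strand, had 10.8 estimated reads after LncHSC-1 knockdown and 0 in control and LncHSC-2 knockdown cells. It was flagged because its counting interval against control lay above equality, in a feature that the comparisons do not use. It has the span that the KSL data list for Ndn, so it was not read as a separate signal. At the same position Ndn had 185.2 reads in the LncHSC-1 library against 160.0 in the control, and both features together had 196.0 against 160.0. In the LncHSC-1 library each feature alone held a fractional number of reads, whereas their sum was whole. Whether these reads belong to Ndn was not tested.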

How the results depend on the processing

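The count of members past 1.5-fold was 0 in each of the 3 comparisons under every alternative run: a pseudocount of 0.1, a floor of 1 FPKM or none, the count columns as deposited or rescaled, rescaled FPKM, and 2-fold. A 2-fold rule could not raise a count of 0. The runs with another pseudocount, column or scaling kept the floor of 5 FPKM, so only Gnas and Grb10 entered them. The lower floors kept the pseudocount of 1, which understates low genes. These counts therefore say little about the members under the floor. At 1 FPKM rather than 5 the control KSL library held 5 members in place of 2; rescaled to a common sum per library it held 3. In granulocytes the count was 2 under each alternative, and leaving out either technical replicate gave 2 and 2. With the count columns as deposited, Gnas changed sign, from 0.08 to −0.07 in LncHSC-2 against control and from −0.06 to 0.10 in LncHSC-1 against LncHSC-2 on the log2(value + 1) scale; in these columns the median feature after LncHSC-2 knockdown lies 0.14 lower, and after centring the Gnas values were 0.08 and −0.04. With the same columns 3 other ratios counted as moved, judged against the width of their counting intervals. These were Grb10, at −0.16 in LncHSC-2 against control and 0.28 in LncHSC-1 against LncHSC-2, and Igf2r, at 0.51 in the latter. Ratios with wide intervals or few reads did not count. Among them Dlk1 went from 0.14 to 0.68 in LncHSC-1 against LncHSC-2, past 1.5-fold. Plagl1 and Peg3 shifted further in both LncHSC-1 comparisons, but on 4.4 and 2.0 reads against 0. Rescaling to a common sum moved 6 granulocyte levels, such as Gnas to 78.1 and Igf2r to 18.9. The floor does not enter a single gene's ratio, and members at 0 in both libraries could not move, so neither bears on stability. Igf2r in LncHSC-1 against control ranged from 0.23 to 0.41 over its alternatives. Sums with the antisense models were chosen after seeing the data. No paired analysis was possible because each KSL group has 1 library and the granulocytes have no group to pair with. Depth limits Meg3, Peg3, Plagl1 and H19, which had at most 6.0 reads in a KSL library.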
